A study of Mus musculus with 141 samples.

Results

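The effect of IL6 and TGFb on mouse helper T cells after 6 h of culture was read from 6 RNA sequencing libraries of a series of 141. The treated cells were naive CD4 T cells of C57BL/6 mice, stimulated on plates coated with antibodies to CD3 and CD28 and given IL6 and TGFb, in 3 libraries. The cells set against them had the same antibodies and no cytokines, a condition called Th0, also in 3 libraries. Both groups are wild type, were sorted as CD4+CD25-CD44lo cells from spleen and lymph nodes, and carry no transgene; their age and sex are not stated in the labels. The samples were chosen by their labels (culture condition and time). The series follows such cells through 72 h of culture at 9 times after a 0 h sample. The labels number 3 replicates in each group and call them biological. No source used here says which of them came from the same mouse or culture, so a p-value measures a spread between libraries. In the main fit that spread is pooled within the groups of all 57 libraries of the same 3 courses. It can be wider than the scatter among the 6 libraries at 6 h.

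Naive CD4 T cells take on an effector fate according to the cytokines present when the T cell receptor is engaged. IL6 binds its receptor together with gp130 and activates the transcription factor STAT3, while TGFb acts through a pair of receptor kinases that phosphorylate SMAD proteins. Together they start the Th17 program, in which BATF, IRF4 and STAT3 come early, genes such as those for interleukin 17 and the IL-23 receptor follow, and TGFb holds back the Th1 and Th2 fates.

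The 6 libraries held 24 to 27.1 M reads each, and none stood apart. The root mean square distance of a library from its group mean was 0.122 to 0.156 on the log2 scale, against a median of 0.158 over the 57 libraries fitted. Levels are CPM (reads scaled to a common library total) rescaled by TMM, a factor per library that evens out composition and lay between 1.00 and 1.10 here. Fold changes are log2 differences, IL6 and TGFb minus no cytokines, ± SE, taken after adding 0.5 CPM, which shrinks the change of genes near that level. Genes with an adjusted p under 0.05 are named as called, by limma with Benjamini-Hochberg adjustment over the 14695 genes tested; the spread came from all 57 libraries of the same 3 courses. T cell genes were abundant in both groups: the 8 CD4 T cell markers summed to 1760 to 2040 CPM with IL6 and TGFb and to 1920 to 2320 CPM with no cytokines.

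At 6 h 677 genes were called (4.61% of those tested): 418 were higher with IL6 and TGFb (2.84%) and 259 were lower (1.76%). The median log2 change over all genes was -0.031. Rises were larger than falls at the extremes: 192 called genes were at least 2-fold higher and 76 at least 2-fold lower, and 10 were at least 8-fold higher and 2 at least 8-fold lower. The median called change was 0.93 among the rises and -0.73 among the falls. Libraries of both groups did not overlap for 417 of the 418 rises and 257 of the 259 falls, against 10.6% of all genes lying wholly higher and 17.7% wholly lower. The calls rest on differences between these same libraries, so the separation is no independent support for them. In bulk RNA fewer cells of a type and less RNA per cell cannot be told apart. The count rests on where the spread is taken from: a fit of the 6 libraries alone called 909 higher (6.19%) and 707 lower (4.81%), and 653 of the 677 were among them. Of the 677, 414 were called in each of the fits that left out 1 of the 6 libraries, and without replicate 2 or 3 of every group the count was 288 and 388.

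**Figure D1:**
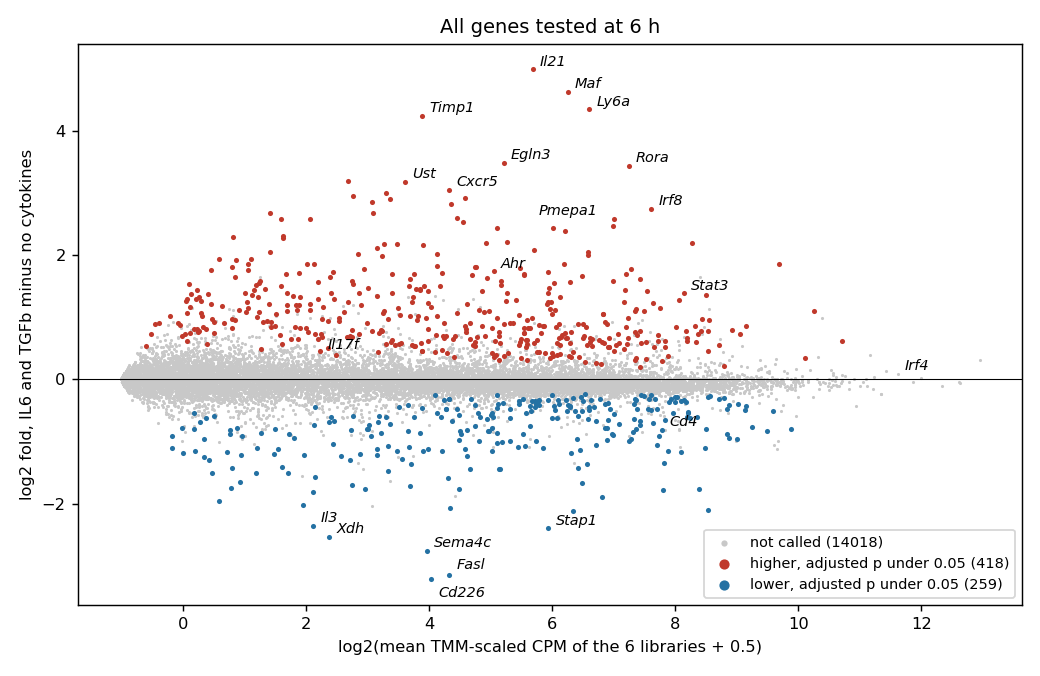
Each point is 1 of 14695 genes, with its mean level over the 6 libraries (log2 of TMM-scaled CPM plus 0.5) on the horizontal axis and its log2 fold, IL6 and TGFb minus no cytokines, on the vertical axis. The 418 called rises are red and the 259 called falls blue; Il21 tops the rises at 4.99 and Cd226 is the lowest fall named at -3.22.

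4 genes that mark the ends of this range are shown with their promoter sequence, since promoters hold sites through which STAT3, AP-1 and SMAD proteins can act. Of the 24 genes with the largest rises and falls, 18 had an entry in the RefSeq promoter table (GRCm38.p6). The first 3 such rises and Fasl, from the largest falls, are printed, from 250 bases before to 50 bases after the gene's start, 5′ to 3′. Capitals mark matches, on either strand, to TTCNNNGAA (a STAT motif), TGANTCA (AP-1) or CAGAC (SMAD). The regions are chr3:37232587-37232886, reverse strand for Il21, chrX:20869916-20870215, forward strand for Timp1, chr12:54203825-54204124, reverse strand for Egln3 and chr1:161788446-161788745, reverse strand for Fasl.
Il21: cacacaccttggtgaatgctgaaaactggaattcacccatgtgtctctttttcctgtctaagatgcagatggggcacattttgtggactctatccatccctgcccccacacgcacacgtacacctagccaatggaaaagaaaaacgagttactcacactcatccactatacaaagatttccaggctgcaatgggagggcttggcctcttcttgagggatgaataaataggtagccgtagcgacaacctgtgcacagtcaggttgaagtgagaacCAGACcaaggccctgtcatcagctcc
Timp1: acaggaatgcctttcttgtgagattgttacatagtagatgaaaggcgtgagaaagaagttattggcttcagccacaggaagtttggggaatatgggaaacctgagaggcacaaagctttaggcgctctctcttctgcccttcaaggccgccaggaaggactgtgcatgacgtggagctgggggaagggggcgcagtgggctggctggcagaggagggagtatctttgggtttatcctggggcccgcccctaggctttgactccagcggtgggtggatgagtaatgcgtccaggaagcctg
Egln3: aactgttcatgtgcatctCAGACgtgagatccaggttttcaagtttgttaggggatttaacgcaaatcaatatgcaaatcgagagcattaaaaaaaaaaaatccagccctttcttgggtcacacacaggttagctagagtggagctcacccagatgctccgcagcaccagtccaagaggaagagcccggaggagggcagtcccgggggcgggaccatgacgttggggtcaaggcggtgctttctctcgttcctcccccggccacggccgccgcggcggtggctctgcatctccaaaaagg
Fasl: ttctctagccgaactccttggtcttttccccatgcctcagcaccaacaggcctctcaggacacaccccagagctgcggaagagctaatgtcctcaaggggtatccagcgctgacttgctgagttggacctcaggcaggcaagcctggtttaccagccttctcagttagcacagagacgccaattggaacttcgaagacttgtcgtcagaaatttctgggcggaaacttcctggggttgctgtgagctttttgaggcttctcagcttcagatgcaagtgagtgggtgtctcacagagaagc
Only CAGAC was matched, once each in Il21 and Egln3; the letters searched are not in the windows of Timp1 and Fasl. CAGAC is in 49.6% of all 32851 promoters, TTCNNNGAA in 8.3% and TGANTCA in 7.81%. Among the 12660 promoters of genes tested the shares were 47.6%, 6.97% and 5.11%. Among promoters of genes that rose at 6 h they were 46.8%, 7.64% and 8.1%, and among promoters of genes that fell 47.5%, 7.91% and 6.83%. These are counts of letters and show no binding.

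The largest rise was in Il21, the gene of a cytokine that signals through STAT3. It stood at 109, 115 and 72.4 CPM with IL6 and TGFb, against 2.28, 1.68 and 4.3 CPM with no cytokines (4.99 ± 0.41, adjusted p = 1.35e-12). Maf, a transcription factor that acts on Il21, stood at 157, 175 and 105 CPM with IL6 and TGFb, against 4.3, 3.79 and 8.87 CPM with no cytokines (4.63 ± 0.31, adjusted p = 3.05e-15). In both genes replicate 3 was the lowest of the cytokine libraries and the highest of the libraries with no cytokines, and the groups were still far apart. Rora, a nuclear receptor that acts in Th17 cells, was at 279.6, 318 and 235 CPM with IL6 and TGFb, against 21.9, 23.9 and 29.9 CPM with no cytokines (3.43 ± 0.25, adjusted p = 1.11e-13).

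Ly6a, which encodes the surface protein Sca-1, was at 194, 194 and 164 CPM with IL6 and TGFb, against 8.83, 6.5 and 10.8 CPM with no cytokines (4.35 ± 0.22, adjusted p = 3.05e-19). Timp1, an inhibitor of matrix metalloproteinases, was at 24.4, 33.5 and 25 CPM with IL6 and TGFb, against 0.809, 0.929 and 1.21 CPM with no cytokines (4.24 ± 0.33, adjusted p = 2.77e-13). Egln3, an oxygen sensor that marks HIF proteins for destruction, was at 77.1, 70.5 and 55 CPM with IL6 and TGFb, against 5.37, 5.04 and 6.15 CPM with no cytokines (3.49 ± 0.35, adjusted p = 4.25e-10). All 3 cytokine libraries of these genes lay above every library with no cytokines, which the rule that named them required. Ust, a sulfotransferase that modifies chondroitin and dermatan sulfate, rose by 3.18 ± 0.21, Tmcc3, a transmembrane protein, by 2.94 ± 0.46, and Tbkbp1, an adaptor of the kinase TBK1, by 2.89 ± 0.43 (adjusted p = 2.38e-15, 1.12e-05 and 3.56e-06).

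The largest fall was in Cd226, an activating receptor of T and NK cells, at 3.11, 2.56 and 2.3 CPM with IL6 and TGFb, against 36.1, 24.9 and 26.3 CPM with no cytokines (-3.22 ± 0.32, adjusted p = 4.7e-10). Fasl, the death ligand that the promoter above belongs to, was at 2.84, 3.07 and 5.02 CPM with IL6 and TGFb, against 41.1, 30.9 and 34.3 CPM with no cytokines (-3.14 ± 0.57, adjusted p = 0.000114). Sema4c, a semaphorin, was at 3.54, 3.22 and 3.78 CPM with IL6 and TGFb, against 28.3, 27.7 and 23.8 CPM with no cytokines (-2.75 ± 0.41, adjusted p = 4.34e-06). No library with IL6 and TGFb reached any library with no cytokines in these genes, which the rule that named them required.

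Stap1, an adaptor protein of lymphocyte signalling, was at 16.2, 15.8 and 26.7 CPM with IL6 and TGFb, against 105, 100.3 and 101 CPM with no cytokines (-2.40 ± 0.16, adjusted p = 3.72e-15). Replicate 3 was the highest of its cytokine libraries. Xdh, an enzyme of purine breakdown, Tnnt2, the gene of cardiac troponin T, and Kif15, a mitotic kinesin, had log2 changes of -2.54 ± 0.28, -2.12 ± 0.23 and -2.07 ± 0.36 (adjusted p = 7.12e-09, 4.99e-09 and 5.13e-05). Spata31d1b, a gene named for spermatogenesis, was at 0.894, 1.13 and 1.06 CPM with IL6 and TGFb, against 5.81, 5.32 and 6.04 CPM with no cytokines (-2.03 ± 0.43, adjusted p = 0.00126). DESeq2 on the recovered reads gave it an adjusted p of 0.0838. Lad1, which encodes the anchoring protein ladinin, was at 161, 126 and 127 CPM with IL6 and TGFb, against 697, 557 and 539 CPM with no cytokines (-2.11 ± 0.53, adjusted p = 0.00886). Without replicate 1 of the cells with no cytokines its adjusted p was 0.0529.

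**Figure D2:**
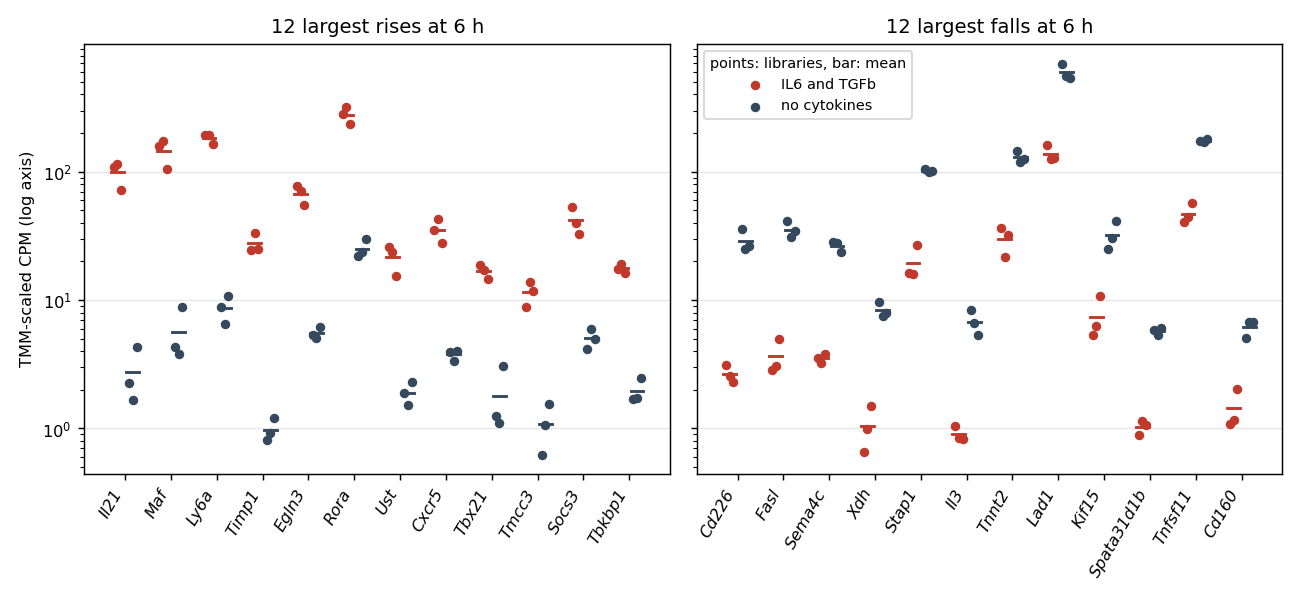
TMM-scaled CPM (log axis) of the 12 largest rises and 12 largest falls at 6 h. Points are libraries, with IL6 and TGFb in red on the left of each pair and no cytokines in dark blue on the right, and bars are means of 3. The 24 genes were picked among those whose groups do not overlap, so the gap between the colours is a condition of the choice. Rora has the highest level among the rises shown and Lad1 among the falls.

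The IL-6 pathway was followed through a list of 19 genes, of which 18 were tested. Of these 7 rose and 0 fell (against 2.84% and 1.76% of all genes), with a median log2 change of 0.56. Il6ra, the ligand-binding chain of its receptor, was at 51.8, 45.9 and 40.9 CPM with IL6 and TGFb, against 47, 48.2 and 37.7 CPM with no cytokines (0.06 ± 0.24, adjusted p = 0.999), and the groups overlapped. Il6st, which encodes the shared signalling chain gp130, rose by 0.46 ± 0.14 (adjusted p = 0.0338). It lost its call without replicate 1 or 2 of the cytokine libraries or replicate 2 or 3 of the others, with adjusted p up to 0.263. Stat3 itself, the transcription factor below gp130, was at 423, 409.8 and 388 CPM with IL6 and TGFb, against 159.8, 148 and 158 CPM with no cytokines (1.39 ± 0.13, adjusted p = 3.36e-11). Socs3, the feedback inhibitor of gp130, was at 53, 39.9 and 32.7 CPM with IL6 and TGFb, against 4.16, 5.97 and 4.98 CPM with no cytokines (2.92 ± 0.56, adjusted p = 0.000278). Its cytokine libraries spread more widely than those of Stat3 but stayed above all 3 others.

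Batf, the AP-1 family factor that opens Th17 genes with IRF4, was at 75.6, 70.1 and 61.3 CPM with IL6 and TGFb, against 20.6, 18.7 and 19.4 CPM with no cytokines (1.79 ± 0.23, adjusted p = 1.3e-07). Pim2, a survival kinase that STAT proteins induce, was at 93, 83.6 and 75.1 CPM with IL6 and TGFb, against 37.7, 33.6 and 35.8 CPM with no cytokines (1.22 ± 0.23, adjusted p = 0.00022). Bcl3, an atypical IkB protein, rose by 1.70 ± 0.45 and Junb, a partner of BATF, by 0.98 ± 0.28 (adjusted p = 0.0146 and 0.0299). The call of Junb was lost without any one of the 6 libraries (adjusted p 0.0608 to 0.129). That of Bcl3 was lost without replicate 1 or 2 of the cytokine libraries or replicate 3 of the others (up to 0.0833). In the fit of the 6 libraries alone 12 of the 18 genes were higher and 1 lower (6.19% and 4.81% of all genes).

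The TGF-beta list held 24 genes of receptors, SMAD proteins and feedback, 23 of them tested. Of these 6 rose and 1 fell (against 2.84% and 1.76% of all genes), with a median of 0.46. Tgfbr1, the type I receptor, was at 253, 300.4 and 259 CPM with IL6 and TGFb, against 101, 97.1 and 103 CPM with no cytokines (1.42 ± 0.15, adjusted p = 3.36e-09). Tgfbr2, the type II receptor, was at 203, 187 and 169 CPM with IL6 and TGFb, against 138, 129 and 108 CPM with no cytokines and was not called (0.58 ± 0.20, adjusted p = 0.103), although its groups did not overlap. Tgfbr3, the co-receptor betaglycan, was at 13.4, 14.2 and 10.0 CPM with IL6 and TGFb, against 5.04, 7.25 and 4.64 CPM with no cytokines (1.10 ± 0.26, adjusted p = 0.00498).

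Among the SMAD genes Smad7, the inhibitory one, was called, at 119, 126 and 114 CPM with IL6 and TGFb, against 63.9, 72.7 and 63.8 CPM with no cytokines (0.84 ± 0.12, adjusted p = 2.4e-06). Smad2 and Smad4, a receptor-activated SMAD and the common partner, had log2 changes of -0.14 ± 0.09 and -0.12 ± 0.14 and were not called (adjusted p = 0.682 and 0.922). Smad3, the other receptor-activated SMAD, was at 169.6, 182 and 139 CPM with IL6 and TGFb, against 90.9, 89 and 77.8 CPM with no cytokines, with groups apart but an adjusted p of 0.254 (0.92 ± 0.38). Ski and Skil, co-repressors of SMAD proteins, had 0.22 ± 0.14 and 0.68 ± 0.26 (adjusted p = 0.637 and 0.182), again with every cytokine library above the others. The fit of the 6 libraries alone called Smad3, Skil, Ski and Tgfbr2 higher (adjusted p = 0.000432, 0.000153, 0.0131 and 0.00335). In it 12 of the 23 genes of the list were higher and 1 was lower (6.19% and 4.81% of all genes).

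Pmepa1, a target and inhibitor of TGF-beta signalling, was at 235, 238 and 190.1 CPM with IL6 and TGFb, against 36.5, 36 and 36.1 CPM with no cytokines (2.59 ± 0.24, adjusted p = 6.96e-11). Its libraries with no cytokines hardly differed from each other. Ldlrad4, a related inhibitor, was at 10.6, 9.62 and 8.42 CPM with IL6 and TGFb, against 2.98, 2.89 and 3.02 CPM with no cytokines (1.53 ± 0.19, adjusted p = 1.12e-07). Of the Id genes, whose products block E proteins, Id2 rose, Id3 fell and Id1 had a log2 change of 0.01 ± 0.21 and was not called. Id2 was at 79.7, 93.4 and 77.6 CPM with IL6 and TGFb, against 17.3, 18.7 and 21.9 CPM with no cytokines (2.09 ± 0.26, adjusted p = 1.33e-07). Id3 was at 55.4, 48.9 and 38.8 CPM with IL6 and TGFb, against 125, 111 and 92.1 CPM with no cytokines (-1.19 ± 0.26, adjusted p = 0.00176).

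Of the 12 regulators of the Th17 fate 7 rose and 0 fell (against 2.84% and 1.76% of all genes). Their median log2 change was 1.1, the highest of the 23 lists. The fit of the 6 libraries alone called 8 higher and 1 lower (6.19% and 4.81% of all genes). Ahr, the receptor of dioxin and dietary ligands, was at 53.3, 54.6 and 43.9 CPM with IL6 and TGFb, against 16.1, 12 and 16.5 CPM with no cytokines (1.74 ± 0.29, adjusted p = 4.14e-05). Hif1a, the oxygen-sensitive factor, was at 640.0, 730.1 and 615 CPM with IL6 and TGFb, against 421, 385 and 386 CPM with no cytokines (0.73 ± 0.13, adjusted p = 0.000131).

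5 of the 12 regulators were not called. Irf4, the partner of BATF, was at 3227, 3424 and 3019.5 CPM with IL6 and TGFb, against 3224, 2996 and 2871 CPM with no cytokines (0.09 ± 0.43, adjusted p = 0.999), so both groups held much of it and overlapped. Runx1, a Runt family factor, had 0.15 ± 0.18, Bhlhe40, a repressor of Il10, -0.40 ± 0.41, Nfkbiz, an atypical IkB, -0.27 ± 0.18, and Basp1 0.81 ± 0.28 (adjusted p = 0.926, 0.895, 0.693 and 0.104). The fit of the 6 libraries alone called Bhlhe40 lower and Basp1 higher (adjusted p = 0.0206 and 0.027).

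Most cytokine and receptor genes of mature Th17 cells were not called. Of 12 genes 3 rose (Il21, Il1r1 and Il21r) and 0 fell, against 2.84% and 1.76% of all genes, with a median of 0.285. Il17a was at 0.311, 0.293 and 0.982 CPM with IL6 and TGFb, against 0.294, 0.214 and 0.528 CPM with no cytokines (0.24 ± 0.39, adjusted p = 0.976). Il17f, its neighbour and close relative, was at 6.68, 3 and 5.25 CPM with IL6 and TGFb, against 2.91, 3.07 and 4.34 CPM with no cytokines (0.43 ± 0.72, adjusted p = 0.976). Both overlapped between the groups and neither was called. The IL-23 receptor gene Il23r was at 0.0777, 0.146 and 0.151 CPM with IL6 and TGFb, against 0.0368, 0.0357 and 0.0377 CPM with no cytokines (0.22 ± 0.19, adjusted p = 0.855), values that amount to a few reads per library. Il22, Il24, Il9, Il10, the chemokine gene Ccl20 and the homing receptor gene Ccr6 had log2 changes between 0.03 and 0.39, and no library of them passed 1 CPM.

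Il1r1, the receptor through which IL-1 drives Th17 cells, was at 3.03, 3.26 and 2 CPM with IL6 and TGFb, against 0.258, 0.429 and 0.491 CPM with no cytokines (1.86 ± 0.30, adjusted p = 1.97e-05). Il21r, the receptor for IL-21, was at 271, 298 and 256 CPM with IL6 and TGFb, against 164, 180.5 and 192 CPM with no cytokines (0.62 ± 0.18, adjusted p = 0.0392). Its groups were apart, but the call was lost without any one of the 6 libraries (adjusted p 0.0603 to 0.194).

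**Figure D3:**
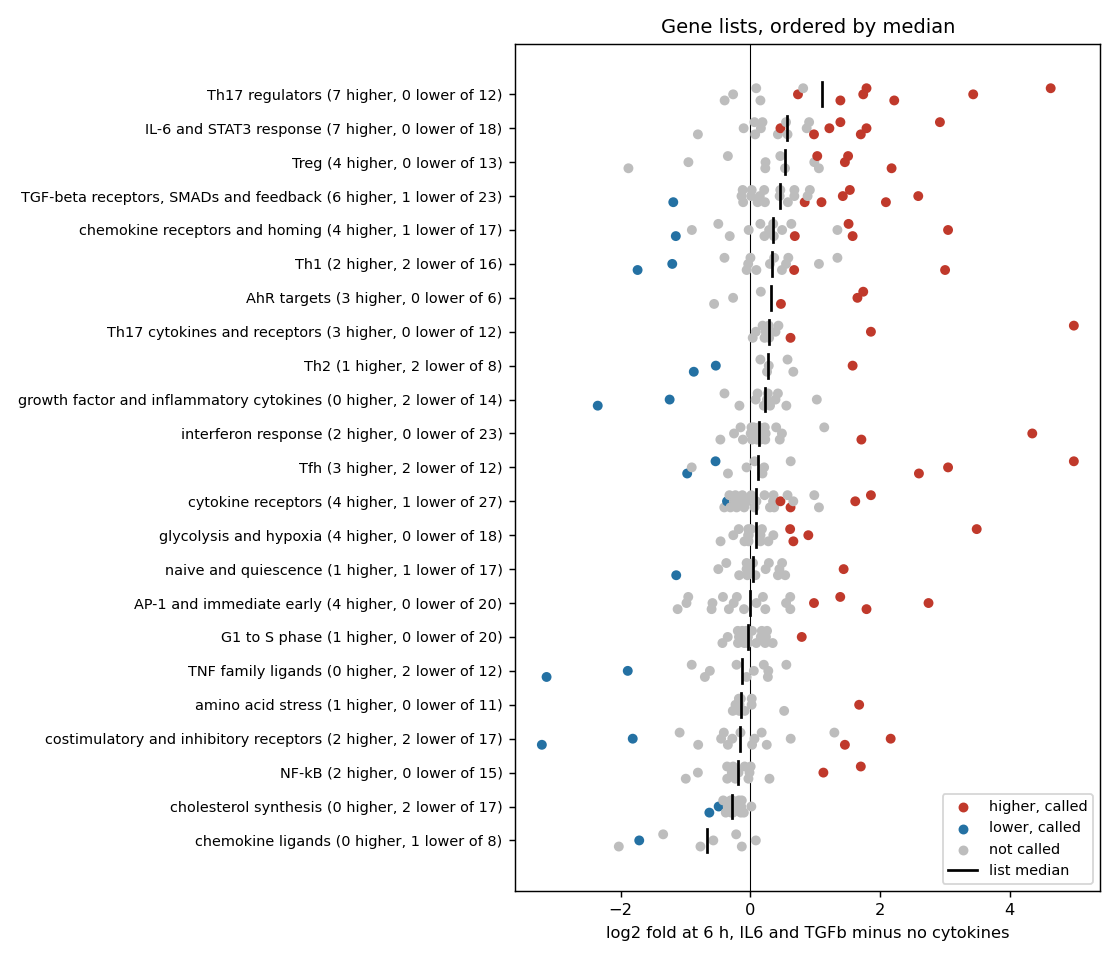
Log2 fold at 6 h of every tested member of 23 gene lists, ordered by the list median (black bar), with called rises in red, called falls in blue and other genes in grey. Th17 regulators lie highest, with a median of 1.1, and chemokine ligands lowest, with -0.672; over all genes tested the median was -0.031.

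Genes of the other helper fates changed in both directions. Of 16 Th1 genes 2 rose and 2 fell (against 2.84% and 1.76% of all genes). Tbx21, the gene of T-bet, the Th1 master regulator, was at 18.7, 17.3 and 14.5 CPM with IL6 and TGFb, against 1.25, 1.11 and 3.06 CPM with no cytokines (3.00 ± 0.61, adjusted p = 0.000595). Replicate 3 was its lowest library with cytokines and its highest without. Eomes, a T-box relative, was at 0.311, 0.256 and 0.302 CPM with IL6 and TGFb, against 2.35, 2.11 and 1.96 CPM with no cytokines (-1.74 ± 0.39, adjusted p = 0.00217). Stat4, which carries the IL-12 signal, was at 4, 3.22 and 4.64 CPM with IL6 and TGFb, against 9.82, 9.58 and 9.66 CPM with no cytokines (-1.21 ± 0.24, adjusted p = 0.000377). Runx3, which acts with T-bet, rose by 0.67 ± 0.13 (adjusted p = 0.000419). Ifng, the Th1 cytokine, was at 0.505, 0.549 and 0.718 CPM with IL6 and TGFb, against 0.625, 1.04 and 1.21 CPM with no cytokines and was not called (-0.40 ± 0.35, adjusted p = 0.839).

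Of 8 Th2 genes tested 1 rose and 2 fell (against 2.84% and 1.76% of all genes). Gata3, the Th2 master regulator, was at 16, 16.7 and 14.5 CPM with IL6 and TGFb, against 30.8, 30.2 and 26.7 CPM with no cytokines (-0.87 ± 0.16, adjusted p = 0.000115). Stat6, which carries the IL-4 signal, fell (-0.53 ± 0.13, adjusted p = 0.0076). Its adjusted p was 0.0526 without replicate 3 of the cytokine libraries and 0.0599 without replicate 1 of the others. Ccr8, a chemokine receptor of Th2 and regulatory cells, was at 199.6, 209.7 and 161 CPM with IL6 and TGFb, against 69.4, 62.5 and 57.7 CPM with no cytokines (1.58 ± 0.30, adjusted p = 0.000245). The Th2 cytokine gene Il4 was under 1 CPM in all 6 libraries.

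Of 13 genes of regulatory T cells 4 rose and 0 fell (against 2.84% and 1.76% of all genes), with a median of 0.533. Foxp3, their master regulator, was at 5.59, 7.53 and 11.2 CPM with IL6 and TGFb, against 3.53, 4.75 and 8.41 CPM with no cytokines, overlapped between the groups and was not called (0.53 ± 0.58, adjusted p = 0.906). Nt5e, the gene of CD73, which makes adenosine, was at 17.4, 19.8 and 15.7 CPM with IL6 and TGFb, against 3.46, 2.68 and 4.57 CPM with no cytokines (2.18 ± 0.19, adjusted p = 1.32e-11). The other rises were Gpr83, a G protein coupled receptor (1.51 ± 0.28, adjusted p = 0.000174), Ctla4, an inhibitory receptor (1.46 ± 0.20, adjusted p = 8.83e-07), and Izumo1r, the folate receptor FR4 (1.03 ± 0.21, adjusted p = 0.000506). Lrrc32, which holds latent TGF-beta on the cell surface, had the most negative change of the list, at 7.5, 8.49 and 10.1 CPM with IL6 and TGFb, against 32.3, 33.5 and 33.7 CPM with no cytokines. Its groups were far apart, yet the fit of 57 libraries did not call it (-1.88 ± 0.72, adjusted p = 0.173), while that of the 6 alone did (adjusted p = 5.26e-05).

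Of 12 follicular helper genes 3 rose and 2 fell (against 2.84% and 1.76% of all genes). Beside Il21, Cxcr5, the receptor that leads T cells into follicles, was at 35, 42.9 and 28 CPM with IL6 and TGFb, against 3.94, 3.36 and 4.04 CPM with no cytokines (3.05 ± 0.24, adjusted p = 4.87e-13). Tox2, a nuclear factor of these cells, was at 33, 46.9 and 31.9 CPM with IL6 and TGFb, against 4.45, 6.72 and 6 CPM with no cytokines (2.60 ± 0.27, adjusted p = 1.1e-09). Sh2d1a, the adaptor SAP, was at 16.1, 13.8 and 13.9 CPM with IL6 and TGFb, against 32.4, 28.4 and 26.6 CPM with no cytokines (-0.98 ± 0.16, adjusted p = 2.23e-05). Tox, a related nuclear factor, fell (-0.54 ± 0.14, adjusted p = 0.0122), a call lost without replicate 1 of the cytokine libraries or replicate 1 or 2 of the others (up to 0.126). Bcl6, the master regulator of these cells, was at 65.4, 83.1 and 71.6 CPM with IL6 and TGFb, against 65.2, 62.5 and 64.8 CPM with no cytokines (0.19 ± 0.33, adjusted p = 0.983).

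Of 14 growth factor and inflammatory cytokine genes 0 rose and 2 fell (against 2.84% and 1.76% of all genes). The fit of the 6 libraries alone called 4 higher and 2 lower (6.19% and 4.81% of all genes). Il3 was at 1.05, 0.841 and 0.831 CPM with IL6 and TGFb, against 8.35, 6.68 and 5.32 CPM with no cytokines (-2.35 ± 0.44, adjusted p = 0.000182). Csf2, the gene of GM-CSF, was at 0.117, 0.219 and 0.453 CPM with IL6 and TGFb, against 1.1, 1.25 and 1.51 CPM with no cytokines (-1.25 ± 0.35, adjusted p = 0.0216). For it edgeR and DESeq2 on the recovered reads gave adjusted p values of 0.0727 and 0.0694. Without replicate 1 or 2 of the cytokine libraries or replicate 2 or 3 of the others limma did not call it either, with adjusted p up to 0.142. Il2, the main growth factor of these cells, was at 489, 486 and 449.7 CPM with IL6 and TGFb, against 453, 427 and 466 CPM with no cytokines and was not called (0.08 ± 1.05, adjusted p = 1). The fit of the 6 libraries alone gave 0.12 ± 0.05 and did not call it either (adjusted p = 0.197).

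Of 8 chemokine genes 0 rose and 1, Xcl1, fell (against 2.84% and 1.76% of all genes). Xcl1 was at 4.43, 5.6 and 6.53 CPM with IL6 and TGFb, against 14.9, 22.1 and 20.9 CPM with no cytokines (-1.71 ± 0.33, adjusted p = 0.000297). Ccl3 was at 2.25, 2.67 and 3.55 CPM with IL6 and TGFb, against 11.1, 13.1 and 14.7 CPM with no cytokines (-2.03 ± 0.86, adjusted p = 0.271). Ccl4 was at 35, 50.6 and 52.1 CPM with IL6 and TGFb, against 105, 118 and 125 CPM with no cytokines (-1.35 ± 0.90, adjusted p = 0.697). Both lay wholly below the libraries with no cytokines, and the fit of the 6 libraries alone called them (adjusted p = 0.000357 and 0.00145). Of 12 ligands of the TNF family 0 rose and 2 fell, Fasl and Tnfsf11 (against 2.84% and 1.76% of all genes). The fit of the 6 libraries alone called 2 higher and 5 lower (6.19% and 4.81% of all genes). Tnfsf11, the gene of RANKL, was at 40.8, 44.1 and 56.8 CPM with IL6 and TGFb, against 175, 171 and 179 CPM with no cytokines (-1.89 ± 0.51, adjusted p = 0.0157). Without replicate 1 or 2 of the cytokine libraries or any 1 of the libraries with no cytokines the call was lost (adjusted p 0.0506 to 0.0777). Cd40lg, the ligand that activates B cells, was at 98.3, 118 and 99.9 CPM with IL6 and TGFb, against 202, 206 and 184 CPM with no cytokines (-0.91 ± 0.30, adjusted p = 0.0799). The fit of the 6 libraries alone called it lower (adjusted p = 0.000154).

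Of 27 cytokine receptor genes 4 rose and 1 fell (against 2.84% and 1.76% of all genes). Il2rb, the beta chain for IL-2 and IL-15, was at 279, 274 and 227 CPM with IL6 and TGFb, against 91.2, 77.3 and 84.6 CPM with no cytokines (1.62 ± 0.19, adjusted p = 1.54e-08). Il2rg, the chain common to these receptors, was at 218, 226 and 224 CPM with IL6 and TGFb, against 282, 281 and 296 CPM with no cytokines (-0.36 ± 0.09, adjusted p = 0.0108). Its adjusted p was 0.0553 without replicate 1 of the cytokine libraries and 0.0643 without replicate 3 of the others. Il2ra, the high-affinity chain, was at 1668, 1855 and 1779.9 CPM with IL6 and TGFb, against 887, 821 and 977 CPM with no cytokines. It was not called in the fit of 57 libraries (0.98 ± 0.38, adjusted p = 0.187) but was in that of the 6 alone (adjusted p = 0.000162).

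Of 17 chemokine receptor and homing genes 4 rose and 1 fell (against 2.84% and 1.76% of all genes). Cxcr5 and Ccr8, described above, were among the rises. Itga4, the alpha 4 integrin, was at 8.66, 7.64 and 10.2 CPM with IL6 and TGFb, against 20.3, 21.7 and 18.5 CPM with no cytokines (-1.15 ± 0.27, adjusted p = 0.00478). Cxcr6 rose by 0.68 ± 0.19 (adjusted p = 0.0254), a call lost in 5 of the 6 fits that left out 1 library (up to 0.177) and kept without replicate 2 of the cells with no cytokines.

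Among 17 costimulatory and inhibitory receptors 2 rose and 2 fell (against 2.84% and 1.76% of all genes). The fit of the 6 libraries alone called 5 higher and 6 lower (6.19% and 4.81% of all genes). Tigit and Cd226, a pair of receptors of the nectin family, moved apart. Tigit, the inhibitory one, was at 21.2, 29.7 and 20.8 CPM with IL6 and TGFb, against 4.86, 3.97 and 6.04 CPM with no cytokines (2.16 ± 0.53, adjusted p = 0.00678), and its activating competitor Cd226 was the largest fall above. Without replicate 2 of the cytokine libraries the adjusted p of Tigit was 0.052. Cd160, another receptor of T and NK cells, was at 1.09, 1.17 and 2.04 CPM with IL6 and TGFb, against 5.08, 6.75 and 6.75 CPM with no cytokines (-1.82 ± 0.40, adjusted p = 0.00174). Lag3 and Pdcd1, a pair of inhibitory receptors, had 1.29 ± 0.65 and 0.62 ± 0.59 and were not called (adjusted p = 0.44 and 0.877). The fit of the 6 libraries alone called both higher (adjusted p = 0.00188 and 0.00281).

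Of 20 AP-1 and immediate early genes 4 rose and 0 fell (against 2.84% and 1.76% of all genes), with a median of -0.00362. The fit of the 6 libraries alone called 7 higher and 4 lower (6.19% and 4.81% of all genes). Irf8, a factor that can pair with BATF, was at 366, 354 and 299 CPM with IL6 and TGFb, against 47.2, 48.7 and 54.5 CPM with no cytokines (2.75 ± 0.46, adjusted p = 3.96e-05). Ier3, an early response gene, was at 9.21, 10.1 and 10.6 CPM with IL6 and TGFb, against 2.61, 3.57 and 4.57 CPM with no cytokines (1.38 ± 0.30, adjusted p = 0.00167). Of 15 NF-kB genes 2 rose, Bcl3 and Icam1, and 0 fell (against 2.84% and 1.76% of all genes), with a median of -0.185. For this list the fit of the 6 libraries alone called 3 higher and 5 lower (6.19% and 4.81% of all genes). Icam1, the adhesion ligand, was at 85.5, 85.7 and 83.7 CPM with IL6 and TGFb, against 40.1, 34.9 and 41.3 CPM with no cytokines (1.12 ± 0.30, adjusted p = 0.0149). Its adjusted p was up to 0.079 without replicate 1 or 2 of the cytokine libraries or replicate 2 of the others.

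Of 23 genes of the interferon response 21 were higher at 2 h (against 5.59% of all genes), with a median log2 change of 1.95. At 6 h 2 were higher, Ly6a and Gbp5, and 0 lower (against 2.84% and 1.76% of all genes), with a median of 0.13. The fit of the 6 libraries alone called 4 higher and 0 lower (6.19% and 4.81% of all genes). Gbp5, a guanylate-binding protein, was at 28.8, 28.2 and 26.2 CPM with IL6 and TGFb, against 7.91, 7.4 and 9.17 CPM with no cytokines (1.71 ± 0.37, adjusted p = 0.00163).

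Of 18 glycolysis and hypoxia genes 4 rose (against 2.84% of all genes) and 0 fell, with a median of 0.0813. The fit of the 6 libraries alone called 6 higher and 2 lower (6.19% and 4.81% of all genes). Pkm, pyruvate kinase, was at 2075, 2149.7 and 1819.9 CPM with IL6 and TGFb, against 1387, 1276 and 1284 CPM with no cytokines (0.61 ± 0.10, adjusted p = 2.84e-05). Beside it and Egln3, Hk1, a hexokinase, rose by 0.66 ± 0.10 and Tpi1, triose phosphate isomerase, by 0.89 ± 0.25 (adjusted p = 6.15e-06 and 0.0272). Tpi1 lost its call without replicate 1 or 2 of the cytokine libraries or replicate 2 or 3 of the others (up to 0.267). Of 17 cholesterol synthesis genes 0 rose and 2 fell (against 2.84% and 1.76% of all genes). They were Idi1 (-0.63 ± 0.18, adjusted p = 0.023) and Hmgcs1 (-0.49 ± 0.13, adjusted p = 0.0118), both enzymes of the mevalonate route. Without replicate 1 of either group neither was called (up to 0.168 and 0.0993). Idi1 also lost its call without replicate 2 of the cytokine libraries (0.0576) or replicate 3 of the others (0.0808). The fit of the 6 libraries alone called 8 of the 17 lower (4.81% of all genes). Of 11 genes of amino acid stress 1 rose and 0 fell (against 2.84% and 1.76% of all genes). It was Slc7a11, the cystine transporter, at 21.7, 28.3 and 68.2 CPM with IL6 and TGFb, against 7.95, 7.75 and 18.8 CPM with no cytokines (1.68 ± 0.33, adjusted p = 0.000382). Replicate 3 was the highest of both groups, and the fit of the 6 libraries alone gave an adjusted p of 0.0654.

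Of 6 AhR genes 3 rose (against 2.84% of all genes). They were Ahr, counted above among the Th17 regulators, Nqo1, a quinone reductase (1.65 ± 0.37, adjusted p = 0.00213), and Tiparp, a repressor of AhR (0.47 ± 0.14, adjusted p = 0.0335). Cyp1a1, Cyp1b1 and Ahrr were not called in either fit. Their log2 changes were -0.57, 0.17 and -0.26 in the fit of the 6 libraries alone. Tiparp was not called without replicate 2 or 3 of the cytokine libraries or replicate 1 or 2 of the others (up to 0.298). Of 20 genes of the G1 to S transition 1 rose (against 2.84% of all genes), Cdk6, a kinase that starts it (0.79 ± 0.21, adjusted p = 0.0172). That call was lost without replicate 1 or 2 of the cytokine libraries or replicate 1 or 3 of the others (up to 0.107). The fit of the 6 libraries alone called 2 of the 20 higher and 3 lower (6.19% and 4.81% of all genes). Myc, a driver of growth, was at 782, 834 and 777 CPM with IL6 and TGFb, against 1207, 1171 and 1212 CPM with no cytokines and was not called (-0.59 ± 0.19, adjusted p = 0.07). The fit of the 6 libraries alone called it lower (adjusted p = 0.000175). Of 17 genes of naive and quiescent cells 1 rose and 1 fell (against 2.84% and 1.76% of all genes). Foxo1, a factor that maintains naive cells, was at 203, 238 and 197 CPM with IL6 and TGFb, against 78.3, 79.5 and 76.1 CPM with no cytokines (1.44 ± 0.23, adjusted p = 1.88e-05). Klf3, a repressor, was at 13.3, 9.91 and 9.89 CPM with IL6 and TGFb, against 29.2, 25 and 20.8 CPM with no cytokines (-1.14 ± 0.22, adjusted p = 0.000305).

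Markers of cells that a sort can carry over were low. The 10 B cell markers summed to 26 to 30 CPM with IL6 and TGFb and to 35.6 to 40.4 CPM with no cytokines, with no overlap. Of the 10, 7 averaged under 1 CPM and none was called in the fit of 57 libraries. Ighm made up most of each sum. It was at 24.32, 23.04 and 24.85 CPM with IL6 and TGFb, against 32.12, 36.59 and 30.9 CPM with no cytokines. The fit of 57 libraries gave it -0.45 ± 0.33 (adjusted p = 0.746), while that of the 6 alone called it lower (adjusted p = 0.0111). The part of the B cell markers in the results was not tested. The 13 myeloid markers summed to 29.8 to 33.1 CPM with IL6 and TGFb and to 32.6 to 32.8 CPM with no cytokines, with 11 averaging under 1 CPM. The 8 NK and gamma-delta markers summed to 2.76 to 3.13 CPM with IL6 and TGFb, against 4.41 to 5.19 CPM with no cytokines. Eomes, counted above among the Th1 genes, was the only one called. It made up most of that gap, at 0.256 to 0.311 CPM with IL6 and TGFb and 1.96 to 2.35 CPM with no cytokines. Trdc, the other abundant member, overlapped between the groups (2.18, 2.30 and 2.61 against 2.24, 1.93 and 2.15 CPM). The 11 erythroid and platelet markers summed to 14.6 to 22.4 CPM with IL6 and TGFb, against 15.4 to 21.6 CPM with no cytokines. Of these 5 averaged under 1 CPM, and Pf4 and Ppbp were at 0 in all 6 libraries. Cd4 itself fell, at 175, 154 and 145 CPM with IL6 and TGFb, against 339, 281 and 224 CPM with no cytokines (-0.81 ± 0.12, adjusted p = 3.5e-06). The CD8 gene Cd8b1 did too, at 5.67, 5.52 and 4.91 CPM with IL6 and TGFb, against 11.4, 9.47 and 8.38 CPM with no cytokines (-0.80 ± 0.15, adjusted p = 0.000287). The other CD8 gene, Cd8a, was at 0.194, 1.02 and 0.227 CPM with IL6 and TGFb, against 0.221, 1.54 and 0.151 CPM with no cytokines. Its groups overlapped and it was not called. Cd3e, a chain of the T cell receptor complex, was at 218, 235 and 186 CPM with IL6 and TGFb, against 235, 228 and 192 CPM with no cytokines (-0.04 ± 0.12, adjusted p = 0.999).

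The place of 6 h in the course was read by testing the effect at 6 h minus the effect at 2, 4 or 12 h, each over 12 libraries. The 2 effects of a difference shared no sample, while all 3 differences used the same 6 libraries at 6 h. Against 2 h 917 genes differed (6.24%; 495 more positive at 6 h and 422 more negative), against 4 h 25 (0.17%; 16 and 9) and against 12 h 156 (1.06%; 53 and 103). Without TMM scaling the splits were 664 and 371 against 2 h and 23 and 8 against 4 h. A fit of the 12 libraries alone called 1566, 154 and 638 genes, and against 2 h its split was 705 more positive and 861 more negative.

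Many calls at 6 h were also calls at other times, though at 4 h the lists were of like size and at 24 h far longer. Of the 418 rises 154 had been called higher at 2 h (36.8% of the 6 h list and 18.8% of the 2 h list), where 5.59% of all genes were called higher and 6.84% lower, and 47 had been called lower. At 4 h 238 were higher (56.9% and 59.4%; 2.73% of all genes called higher and 1.67% lower). The later counts were 333 at 12 h (79.7% and 41.9%; 5.41% and 4.11% of all genes) and 303 at 24 h (72.5% and 15.2%; 13.5% and 12.6% of all genes). Of the 259 falls 95 had been called lower by 2 h already (36.7% and 9.45%) and 133 at 4 h (51.4% and 54.3%). For later times the shared falls numbered 178 at 12 h (68.7% and 29.5%), then 170 at 24 h (65.6% and 9.16%). At 4 h 0 of the 677 were called in the opposite direction. At 24 h 22 rises and 7 falls were. Not called in that direction at any of the 4 earlier times were 164 rises and 96 falls.

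Rora, described above, had the largest positive difference among the genes named from 2 h as well as from 4 h. Its effect was 3.43 ± 0.25 at 6 h, against -0.40 ± 0.25 at 2 h and 1.18 ± 0.25 at 4 h, and it went on to 6.04 ± 0.25 at 12 h. The differences were 3.84 ± 0.36 from 2 h (adjusted p = 2.07e-10), 2.26 ± 0.36 from 4 h (0.000408) and -2.61 ± 0.36 from 12 h (7.06e-06). Adam19, a metalloproteinase, changed sign. Its effect was 2.05 ± 0.27 at 6 h, against -1.58 ± 0.27 at 2 h, both called, and 0.04 ± 0.27 at 4 h. From 2 and 4 h it differed by 3.63 ± 0.39 and 2.01 ± 0.39 (adjusted p = 4.73e-09 and 0.00608). Mob3b, of a family of kinase activators, was at 32.6, 40.0 and 33.6 CPM with IL6 and TGFb, against 4.23, 4.47 and 5.02 CPM with no cytokines (2.82 ± 0.21, adjusted p = 1.23e-13). Its effect was more positive than at 4 h by 1.52 ± 0.30 (adjusted p = 0.00631). Without replicate 2 of every group the differences of Rora, Adam19 and Mob3b from 4 h were not called (0.23, 0.235 and 0.23), and without replicate 3 those of Adam19 and Mob3b were not (0.498 and 0.654).

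Elovl6 and Gzmb had an effect at 4 h and were not called at 6 h, though the fit of the 6 libraries alone called Elovl6 (adjusted p = 0.0254). Elovl6, an enzyme that lengthens fatty acids, had an effect of 0.55 ± 0.21 at 6 h, against 5.02 ± 0.21 at 2 h and 2.76 ± 0.21 at 4 h. The 2 differences were -4.47 ± 0.30 and -2.21 ± 0.30 (adjusted p = 1.92e-14 and 1.82e-05). Gzmb, the killing enzyme granzyme B, had 0.58 ± 0.26 at 6 h, against 2.61 ± 0.26 at 4 h (-2.02 ± 0.37, adjusted p = 0.00293). On the recovered reads edgeR and DESeq2 did not call that difference (0.169 and 0.0735). Stat3 and Batf had smaller effects at 6 h than at 2 h, with differences of -1.09 ± 0.18 and -1.87 ± 0.32 (adjusted p = 3.23e-05 and 5.87e-05). Smad7 had a more positive one by 1.30 ± 0.17 (adjusted p = 5.88e-07), having been called lower at 2 h (-0.46 ± 0.12).

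The genes named for the most negative difference from 12 h had larger effects at 12 h. Aqp3, a water and glycerol channel, was at 2.37, 1.13 and 1.62 CPM with IL6 and TGFb, against 0.662, 0.965 and 0.83 CPM with no cytokines. Its effect was 0.71 ± 0.45 at 6 h, against 4.56 ± 0.45 at 12 h (difference -3.85 ± 0.64, adjusted p = 0.000236). Stab1, a scavenger receptor, Emp1, a membrane protein, and Kctd14 had effects of 1.15, 1.73 and 1.01 at 6 h, against 4.47, 4.71 and 3.78 at 12 h. Their differences were -3.32 ± 0.38, -2.98 ± 0.56 and -2.77 ± 0.37 (adjusted p = 3.58e-07, 0.00107 and 5.36e-06). Maf and Ahr also had smaller effects than at 12 h, with differences of -2.30 ± 0.43 and -2.03 ± 0.42 (0.00106 and 0.00313). Il17f, with 0.43 ± 0.72 at 6 h and 3.66 ± 0.72 at 12 h, did not pass the test of that difference (-3.23 ± 1.01, adjusted p = 0.166); Il17a reached 4.59 ± 0.39 at 24 h.

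**Figure D4:**
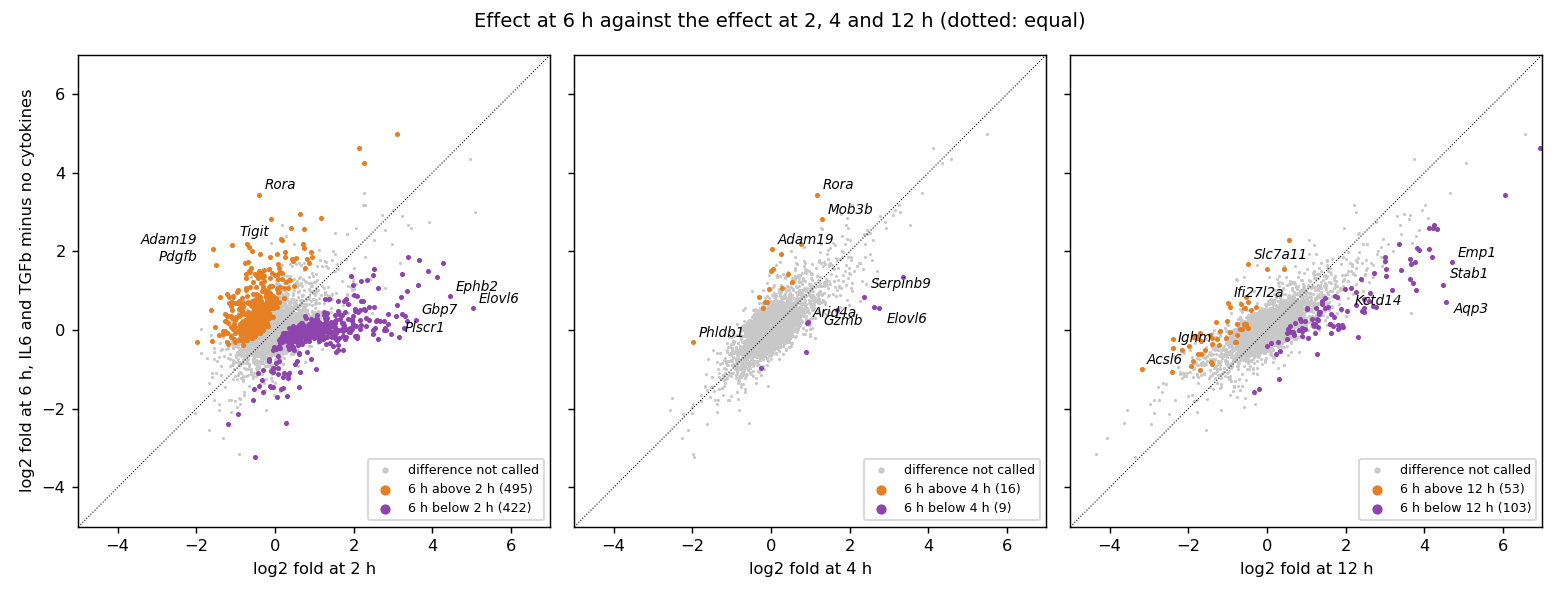
Log2 fold at 6 h (vertical axis) against that at 2, 4 and 12 h (horizontal axes) for 14695 genes. Orange and purple mark genes whose effect at 6 h was called above or below the other, and the dotted line marks equal effects. The called differences number 917 at 2 h, 25 at 4 h and 156 at 12 h; Rora lies above the line at 2 and 4 h.

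**Figure D5:**
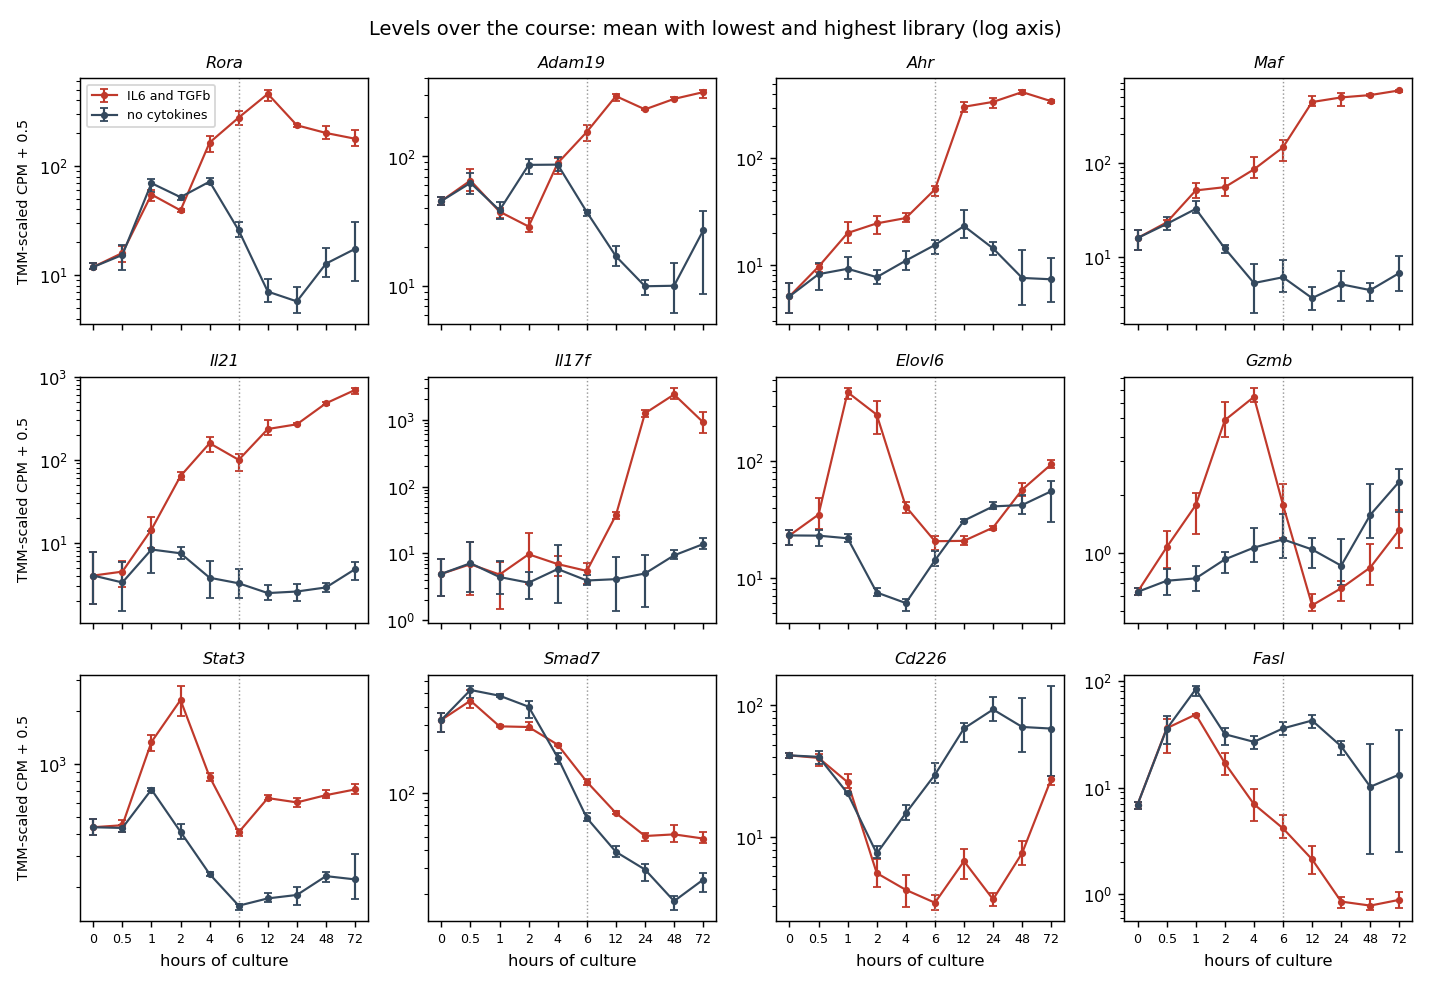
TMM-scaled CPM plus 0.5 (log axis) of 12 genes over 0 to 72 h of culture, with IL6 and TGFb in red and no cytokines in dark blue. Points are means of 3 libraries, bars run from the lowest to the highest, and the dotted line marks 6 h. At 6 h Rora, Ahr, Maf and Il21 are apart while Il17f is not, and Elovl6 differs less than at 2 h.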

How the data were processed

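RNA libraries of the 2 groups at 6 h were analysed within the 57 libraries of courses 1 to 3. The authors deposited CPM under a name that speaks of read counts: all column sums are equal. Division by a column's smallest value gave whole reads for 100% of values (tolerance 0.001), or 16.1 to 35 M reads per library. The submitters' processing notes name TopHat, HTSeq, mm9 and GRCh37; their roles and versions were not given in the sources used here. No strand setting or gene positions are known, so overlapping and near-identical genes may share reads.

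Here CPM was rescaled by TMM and tested as log2 of the value plus 0.5 with limma-trend 3.58.1 (R 4.3.3), 19 groups of 3 with 38 residual degrees of freedom, on the 14695 of 46517 genes that reached 1 CPM in 3 or more libraries; edgeR 4.0.16 and DESeq2 1.42.0 on the recovered reads were alternatives. The scripts were tested on simulated data. Named genes were, from those called at 5 CPM or more with groups apart, the 12 largest rises and falls (clone symbols passed over), all Th17 list members and main pathway genes, up to 4 called members per other list and direction, and the 4 largest differences each way from other times; other list members named were picked after their values were seen. The comparison, lists and rule were chosen with earlier results of these data known. 22 listed genes were absent or too low to test. Some genes that the rule names are not reported here but are part of the list counts.

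Replicate numbers were not used to pair samples in the main fit: deviations from the group means correlated at 0.268, 0.0209 and 0.46 between same-numbered libraries. Between libraries of different numbers they correlated at -0.444 to 0.255. Same-numbered libraries share a title prefix, and fits with a replicate block were run as alternatives. Replicates differed by 5.19 to 8.23 times Poisson noise, so none were copies.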

Additional observations from a re-analysis of the deposited data

Results flagged for a closer look

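The effect of IL6 and TGFb at 6 h differed from the effect at 2, 4 or 12 h by a test of the difference itself, in the same limma fit, for the genes given here with the size of the difference (log2, 6 h minus the other time) and its adjusted p. They are the 4 largest in each direction at each time, and no explanation was weighed.

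Against 2 h the effect at 6 h was more positive for Rora (3.84, 2.07e-10), Adam19 (3.63, 4.73e-09), Tigit (3.26, 0.00326) and Pdgfb (3.14, 0.0159), a growth factor gene not called at 6 h itself. It was more negative for Elovl6 (-4.47, 1.92e-14), the guidance receptor gene Ephb2 (-3.59, 3.52e-09), the lipid scramblase gene Plscr1 (-3.35, 7.9e-07) and the guanylate-binding protein gene Gbp7 (-3.32, 6.76e-06). None of these 8 lost its call when 1 of the 12 libraries was left out, but without replicate 2 or 3 of every group Tigit (0.193 and 0.0808) and Pdgfb (0.341 and 0.186) did. At 6 h itself the fit of the 6 libraries alone called Pdgfb higher (adjusted p = 1.67e-05).

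Against 4 h it was more positive for Rora (2.26, 0.000408), Adam19 (2.01, 0.00608), Phldb1 (1.68, 1.63e-05) and Mob3b (1.52, 0.00631). It was more negative for Elovl6 (-2.21, 1.82e-05), Gzmb (-2.02, 0.00293), the granzyme inhibitor gene Serpinb9 (-1.53, 0.0455) and the chromatin gene Arid4a (-0.73, 0.0229). The 6 h change of Phldb1 was itself negative, at -0.27 in the fit of the 6 libraries alone. The call of Serpinb9 was lost without any one of the 12 libraries (adjusted p 0.0558 to 0.206). That of Arid4a was kept in 4 of the 12 fits and lost without IL6 and TGFb replicate 1 or 2 at 6 h, replicate 2 or 3 of the same cells at 4 h, any replicate of the cells with no cytokines at 6 h or their replicate 1 at 4 h (up to 0.139).

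Against 12 h it was more positive for the acyl-CoA synthetase gene Acsl6 (2.2, 0.0273), Slc7a11 (2.15, 0.00581), the immunoglobulin gene Ighm (1.95, 0.0165) and the interferon-induced gene Ifi27l2a (1.68, 0.00146). It was more negative for Aqp3 (-3.85, 0.000236), Stab1 (-3.32, 3.58e-07), Emp1 (-2.98, 0.00107) and Kctd14 (-2.77, 5.36e-06). Slc7a11 lost its call without IL6 and TGFb replicate 3 at 6 h (0.0616). Ighm lost it without replicate 2 of the cells with IL6 and TGFb (0.0612) or replicate 1 of the cells with no cytokines (0.0619), both at 12 h. Acsl6 was called in 4 of the 12 fits, was lost without replicate 1 or 2 with IL6 and TGFb or 2 or 3 with no cytokines at 6 h and without replicate 2 or 3 with IL6 and TGFb or 1 or 2 with no cytokines at 12 h (up to 0.0936), and edgeR and DESeq2 gave 0.899 and 0.602.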

How the results depend on the processing

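No named gene called at 6 h and no named difference changed sign under the alternatives run. With only the libraries compared, limma called 1616 genes at 6 h, and 154, 638 and 1566 for the differences from 4, 12 and 2 h; with the replicate block added to those libraries the counts were 2329, 455, 1009 and 2407. With only libraries from 0 to 12 h, an alternative chosen after seeing the data, they were 1047, 82, 367 and 1637. The replicate block in the fit of 57 libraries gave 739 genes at 6 h and 41 for the difference from 4 h. Leaving out 1 replicate number at a time gave 288 to 765 genes at 6 h, and 6 to 43, 28 to 195 and 243 to 1124 for the differences from 4, 12 and 2 h; without replicate 2 or 3 each count fell, and without replicate 1 it rose. The balance of the difference from 2 h, 495 genes more positive and 422 more negative, turned to 705 and 861 with only the libraries compared, to 1107 and 1300 with the block added and to 209 and 235 without replicate 3. Leaving out 1 library at 6 h gave 496 to 575. Pseudocounts, filters, scalings, edgeR and DESeq2 gave 620 to 735 genes at 6 h. At this depth 1 read is about 0.04 CPM, so genes such as Il23r rest on single reads.

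Without replicate 2 of every group 35 of 84 calls of named genes and 11 of 24 named differences were lost. The counts were 24 and 12 without replicate 3, and 8 and 2 without replicate 1. Beside genes reported above as lost under another alternative, calls lost without replicate 2 were those of Tbx21 (0.0948), Fasl (0.0504), Cd160 (0.208), Eomes (0.166), Stat4 (0.129), Id3 (0.193), Ccr8 (0.0989), Runx3 (0.0542), Hif1a (0.072), Gbp5 (0.103), Nqo1 (0.318), Itga4 (0.208), Ier3 (0.105), Slc7a11 (0.0857) and Serpinb9 (0.207). Without replicate 3 they were Cd160 (0.0658), Eomes (0.0903), Izumo1r (0.0636), Itga4 (0.0718), Ier3 (0.0635), Serpinb9 (0.367) and Kctd14 (0.304), and without replicate 1 Stab1 (0.208), Emp1 (0.0913) and Kctd14 (0.0948). Beside those of Tigit, Pdgfb, Rora, Adam19 and Mob3b given above, the differences lost without replicate 2 were those of Gzmb (0.327), Serpinb9 (0.822) and Arid4a (1) from 4 h and of Acsl6 (1), Slc7a11 (0.381) and Ighm (0.21) from 12 h. Without replicate 3 they were Serpinb9 (0.777) and Arid4a (0.498) from 4 h and Acsl6 (0.157), Slc7a11 (0.0617), Ighm (0.621), Ifi27l2a (0.128), Aqp3 (0.0617) and Emp1 (0.425) from 12 h. Without replicate 1 they were Gzmb from 4 h (0.0519) and Ifi27l2a from 12 h (0.0637).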
